A study of Mus musculus with 18 samples.

Results

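Peg3, Usp29, Zim1, Mest, Peg10, Sgce, Ndn and Snrpn are 8 mouse genes of 4 imprinted domains, and their levels were read from the rows of a table of raw counts for 55450 genes. They were selected on these same counts, with the values of all 6 groups known, so their levels and fold changes are given as a description with no test. All 8 were among the 17912 genes that passed a filter on low counts. The domains are Peg3 (Peg3, Usp29, Zim1), Mest (Mest alone), Peg10 (Peg10, Sgce) and Snrpn (Ndn, Snrpn).

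The study used C2C12, an established line of mouse myoblasts, precursors that fuse to form myotubes in low serum, and asked how the dose of the noncoding RNAs of the imprinted Dlk1-Dio3 cluster bears on muscle cell state. Polyadenylated RNA was sequenced from myoblasts and from myotubes at day 3 of differentiation, in 3 replicates (A, B and C) of each of 6 groups, 18 libraries in all. The control was a sorted population that had received the pX458 vector alone. The overexpressor (clone 2-4) and the knockout (clone 2-7) each came from a single cell after Cas9 and guide RNA pairs were used to delete part of the proximal Meg3 promoter, so each genotype is 1 clone, and genotype and clone cannot be told apart. The labels do not say whether the replicates were separate cultures, so the error values and p-values measure the spread between these samples only.

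Library totals ran from 41544358 to 79140702 counts, so that the limit a count of 0 allows (3 counts) lay between 0.0375 and 0.0693 CPM (counts scaled to a common library total), for counting error only. Meg3, the gene whose promoter was targeted, had 0 counts in every control library and in every library labelled knockout, and 5222 to 7763 counts in the 6 overexpressor libraries. Meg3 therefore does not separate the line labelled knockout, called the knockout below after that label alone, from the control. Replicate C of the overexpressor myotubes stood apart: the chi-square per degree of freedom over genes was 114 and 119 against its 2 partners and 4.72 to 55.5 for the other 16 pairs within groups. Leaving it out moved the log2 fold changes of the 8 genes by at most 0.30. The summed level of 8 muscle markers (Myod1, Myf5, Des, Myog, Mymk, Myh3, Ckm, Acta1) was 1339 to 1559 CPM in control myoblasts, against 2626 to 3335 in the overexpressor and 11645 to 14447 in knockout cells of that stage. In myotubes the sum was 14872 to 15491 CPM in the control, 23232 to 26432 in the overexpressor and 34426 to 42201 in the knockout. Muscle marker sums thus differed between the lines before differentiation as well as after it, but not every marker moved with the sum. Des carried most of the overexpressor myoblast rise (913 to 2102 CPM), while mean Myh3 was not higher (47.2 and 42.5). In knockout myoblasts Acta1 (76.7 to 4253) and Myh3 (to 3201) led, while mean Myf5 was not higher (25.5 and 23.9). The other marker means were higher in both mutant lines. The part these differences play in any value below was not tested.

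In genomic imprinting a gene is transcribed from only one parental chromosome, under a DNA methylation mark set in the egg or the sperm. Imprinted genes lie in clusters, and a cluster can hold genes expressed from the paternal copy beside genes expressed from the maternal copy. Peg3, Usp29, Mest, Peg10, Sgce, Ndn and Snrpn are known as paternally expressed and Zim1 as maternally expressed, and many imprinted genes act in growth, placenta, muscle and brain. The counts do not separate the parental copies, so all values are sums over both. In bulk RNA, fewer expressing cells and less RNA per cell cannot be told apart.

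Pairs of these genes share a start region, which is the reason for printing it. In the GENCODE annotation of GRCm38 (the build mm10), Peg3 (chromosome 7, 6703892 to 6730431, minus strand) and Usp29 (6730578 to 6967219, plus strand) are transcribed away from each other with 146 bases between their starts, and Zim1 (6671269 to 6696450, minus strand) begins 7441 bases beyond the end of Peg3. Sgce (chromosome 6, 4674350 to 4747207, minus strand) and Peg10 (4747306 to 4760517, plus strand) are likewise divergent, with 98 bases between their starts. Mest (30723547 to 30748465, plus strand) is on the same chromosome. On chromosome 7, Snrpn (59982495 to 60140219, minus strand) and Ndn (62346569 to 62350262, plus strand) are 2206349 bases apart. Of the 8 genes, 6 had entries in the RefSeq promoter table (GRCm38.p6), and Peg10 and Sgce had none. The interval between Peg3 and Usp29 lies outside both genes and is shown because it serves both starts. The second sequence is the 250 bases before a Mest start, shown because Mest differed most between groups. It lies inside the Mest span given above, and RefSeq lists other Mest starts. Both printed sequences are from the plus strand, chr7:6730432-6730577 and chr6:30737800-30738049, with CG dinucleotides, the sites of imprint methylation, in capitals.
Peg3-Usp29 interval: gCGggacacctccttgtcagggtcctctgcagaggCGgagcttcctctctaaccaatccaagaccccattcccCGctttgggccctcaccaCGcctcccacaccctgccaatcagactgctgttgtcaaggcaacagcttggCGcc
Mest upstream: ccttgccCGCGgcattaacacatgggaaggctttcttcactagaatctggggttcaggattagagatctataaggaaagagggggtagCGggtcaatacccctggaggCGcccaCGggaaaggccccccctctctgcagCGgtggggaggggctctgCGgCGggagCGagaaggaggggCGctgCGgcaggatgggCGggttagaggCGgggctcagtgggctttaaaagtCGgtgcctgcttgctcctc
The Peg3-Usp29 interval held 5 CG dinucleotides, more than 54.7% of the 32851 windows of the same length before RefSeq starts. The printed Mest window held 14, more than 70.6% of windows of its length. The 250 bases before an earlier Mest start (30733256 to 30733505) held 7. Those before a later start (30737803 to 30738052), which overlap the printed window, held 14. CCAAT, searched on both strands, occurred 2 times in the Peg3-Usp29 interval, and 24.0% of windows of that length held at least 1 match and 5.85% at least 2. The letters GGGCGG occurred once in the printed Mest window and in 32.7% of windows of that length. These matches describe the letters only; no methylation was measured.

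**Figure D1:**
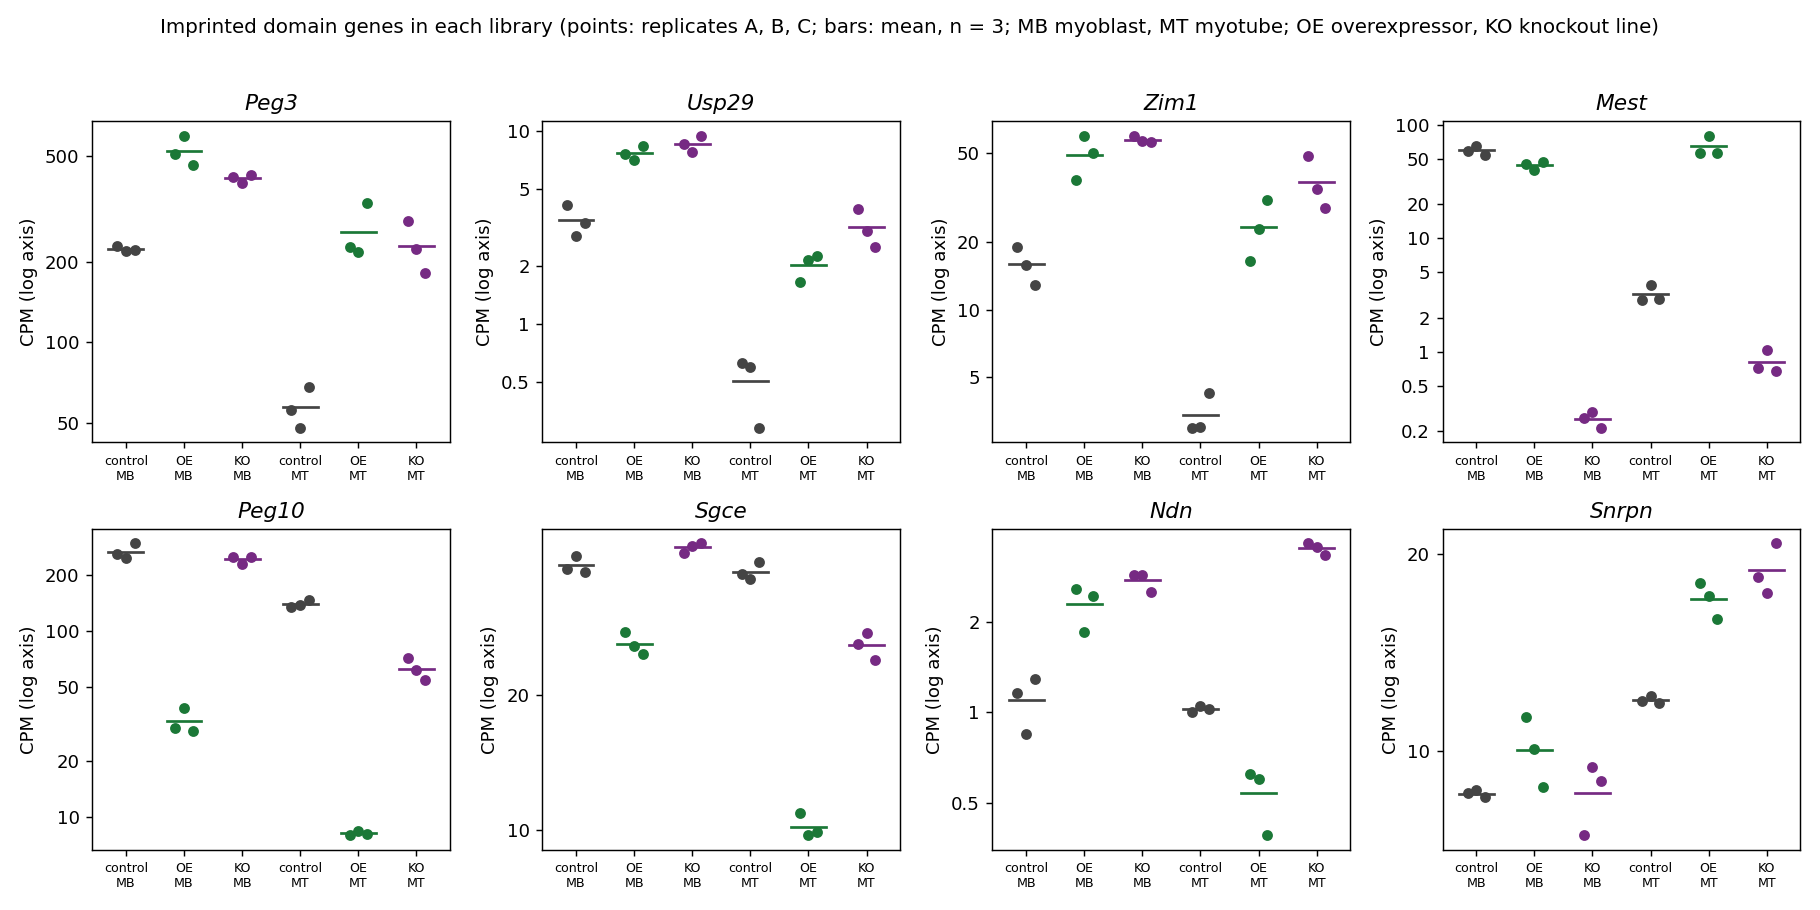
Level of each of the 8 genes in CPM (log axis) in the 18 libraries, by group; points are replicates and bars are group means (n = 3). Mest spans the widest range, from 0.213 CPM in a knockout myoblast library to 80.1 in an overexpressor myotube library, and Peg10 and Sgce are lowest in the overexpressor myotubes.

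The Peg3 domain was higher in both mutant lines than in the control at both stages, for all 3 of its genes. Peg3, a large zinc finger protein known for its part in maternal care, growth and muscle stem cells, stood at 229, 220.2 and 222 CPM in control myoblasts (replicates A, B and C, the order used throughout), against 505, 592 and 459.9 in the overexpressor and 417, 395 and 423 in knockout cells of that stage. In myotubes Peg3 was at 55.7, 48.0 and 67.8 CPM in control cells, 228, 218 and 331 in overexpressor ones and 285, 223 and 181 in knockout ones. The mutant libraries lay above the control libraries of their stage without overlap. Against control myoblasts the log2 fold change of Peg3 was 1.22 (SE 0.18) in the overexpressor and 0.88 (SE 0.18) in the knockout; against control myotubes it was 2.18 (SE 0.18) and 2.01 (SE 0.18). Without replicate C of the overexpressor myotubes, whose 331 CPM was the highest of its group, the myotube value was 2.07. The order of group means ran from overexpressor myoblasts (519 ± 67.3 CPM, SD, n = 3) through knockout myoblasts (412 ± 14.96), overexpressor myotubes (259 ± 62.5), knockout myotubes (229.9 ± 52.3) and control myoblasts (224 ± 4.46) to control myotubes (57.2 ± 10.0). The overexpressor myotube, knockout myotube and control myoblast groups overlapped in that order and did not differ beyond their spread.

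Zim1, a zinc finger gene and the maternally expressed member of the domain, was likewise higher in both mutant lines. Zim1 stood at 19.1, 15.9 and 12.9 CPM in control myoblasts, against 38.0, 59.8 and 50.1 in the overexpressor and 59.8, 56.5 and 56.4 in knockout cells of that stage. In myotubes it was at 2.97, 3.00 and 4.24 CPM in control cells, 16.5, 22.9 and 30.9 in overexpressor ones and 48.4, 34.7 and 28.5 in knockout ones. Against the control its log2 fold change was 1.62 (SE 0.25) and 1.85 (SE 0.25) in overexpressor and knockout myoblasts, and 2.78 (SE 0.27) and 3.45 (SE 0.28) in myotubes, a 10.9-fold difference in the last. The overexpressor and knockout libraries overlapped at both stages.

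Usp29 encodes a ubiquitin-specific protease and was the least abundant of the 3. Its libraries gave 4.14, 2.86 and 3.32 CPM in control myoblasts, against 7.60, 7.07 and 8.32 in the overexpressor and 8.52, 7.81 and 9.43 in knockout cells of that stage. The myotube libraries gave 0.625, 0.595 and 0.289 CPM in control cells, 1.65, 2.15 and 2.24 in overexpressor ones and 3.96, 3.03 and 2.49 in knockout ones. The control myotube values rest on 16 to 33 counts per library. Its log2 fold changes against the control were 1.15 (SE 0.20) and 1.318 (SE 0.20) in myoblasts and 2.01 (SE 0.25) and 2.67 (SE 0.25) in myotubes. Usp29 shares 2676 exon bases with other genes on either strand, and the strand setting of the counting is not given in the sources used here, so its counts are uncertain to that extent.

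All 3 genes were lower in myotubes than in myoblasts in each line. The log2 difference was -1.97 (SE 0.18) for Peg3, -2.23 (SE 0.27) for Zim1 and -2.79 (SE 0.25) for Usp29 in the control, -1.003 (SE 0.18), -1.07 (SE 0.24) and -1.93 (SE 0.20) in the overexpressor, and -0.84 (SE 0.18), -0.63 (SE 0.24) and -1.44 (SE 0.20) in the knockout. The decrease was thus smaller in both mutant lines than in the control for each gene, a difference that was not tested. Per kilobase of merged exon the 3 genes differed widely in level: in control myoblasts Peg3 was at 16.8 ± 0.335 CPM per kilobase (SD, n = 3), Zim1 at 1.97 ± 0.385 and Usp29 at 0.190 ± 0.0357.

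The ratio of the Zim1 count to the Peg3 count in the same library, in percent, which depends on gene length and is read only across groups, was not constant. It was 7.13 ± 1.28% (SD, n = 3) in control myoblasts, against 9.50 ± 1.76% in the overexpressor and 13.99 ± 0.577% in knockout cells of that stage. In myotubes it was 5.95 ± 0.523% in control cells, 9.01 ± 1.63% in overexpressor ones and 16.1 ± 0.793% in knockout ones. In the knockout line the maternally expressed gene was therefore higher relative to Peg3 than in the control, without overlap at either stage. The ratio of Usp29 to Peg3 counts was 1.54 ± 0.257%, 1.503 ± 0.307% and 2.08 ± 0.129% in control, overexpressor and knockout myoblasts. In myotubes that ratio was 0.929 ± 0.440%, 0.794 ± 0.166% and 1.37 ± 0.0164%, so that it was lower in myotubes than in myoblasts of each line.

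**Figure D2:**
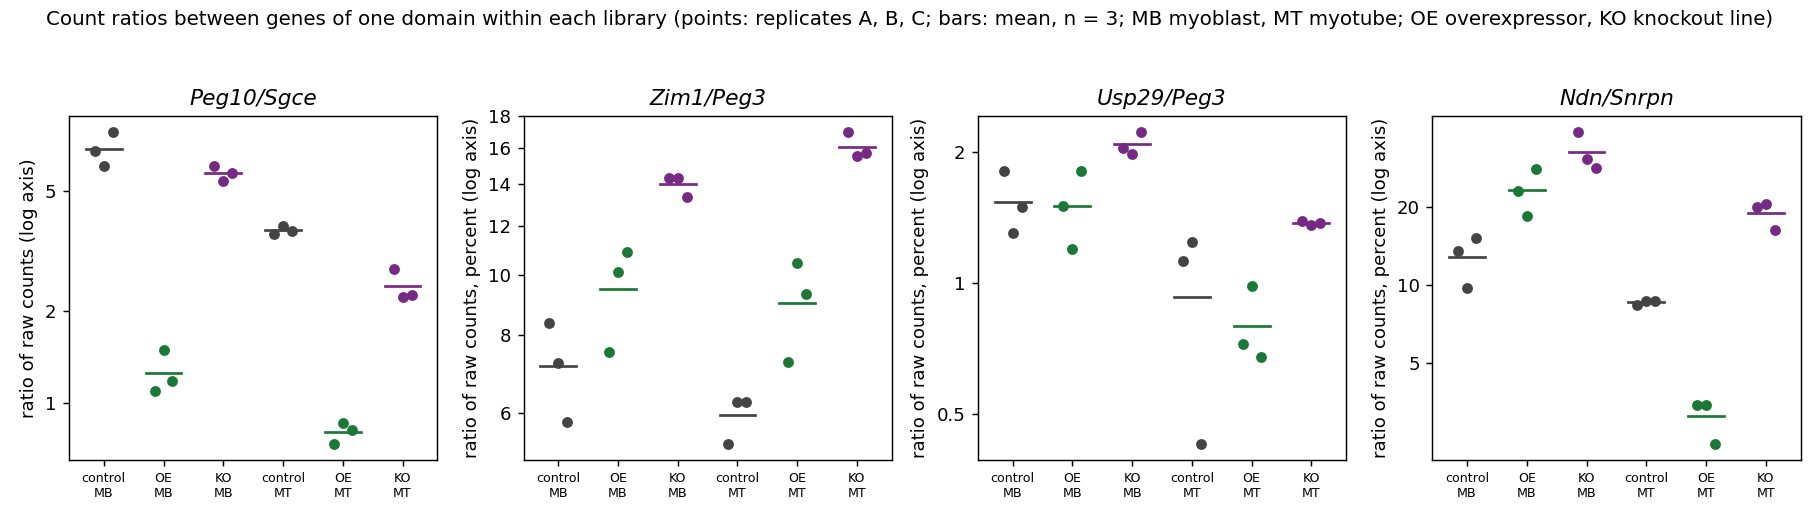
Ratio of raw counts between genes of a domain within each library (log axis; 3 panels in percent), by group; points are replicates and bars are group means (n = 3). Peg10 over Sgce goes from 6.05 or more in control myoblasts to 0.855 or less in overexpressor myotubes, and Zim1 over Peg3 is highest in the knockout line.

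Mest, a protein of the alpha/beta hydrolase fold known as a mesoderm-specific transcript of embryonic growth, showed the widest range of the 8 genes and a different course of differentiation in each line. In control cells it stood at 59.5, 65.7 and 54.2 CPM in myoblasts and 2.86, 3.91 and 2.94 in myotubes. In the overexpressor it stood at 45.7, 39.8 and 46.9 CPM in myoblasts and 57.0, 80.1 and 56.8 in myotubes. In the knockout it was at 0.258, 0.291 and 0.213 CPM in myoblasts, from 12 to 16 counts per library, and 0.717, 1.04 and 0.669 in myotubes, from 32 to 62 counts. Mest was thus nearly silent in the knockout line at both stages, low in control myotubes and high in the other 3 groups. The knockout myoblast value was 234-fold below the control (log2 fold change -7.87, SE 0.22), and the knockout myotube value 3.95-fold below it (-1.98, SE 0.19). The overexpressor was 1.35-fold below the control in myoblasts (-0.44, SE 0.14) and 20.1-fold above it in myotubes (4.33, SE 0.17), or 4.52 on the log2 scale without replicate C of the overexpressor myotubes. With differentiation Mest was lower in the control (-4.21, SE 0.17) and higher in the overexpressor (0.55, SE 0.14) and the knockout (1.67, SE 0.28). Groups overlapped only between overexpressor myotubes (64.7 ± 13.4 CPM, SD, n = 3) and control myoblasts (59.8 ± 5.73).

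Mest shares 912 exon bases with Copg2, a coatomer subunit gene on the other strand, so without a stated strand setting reads there cannot be assigned to one of them. Copg2 did not follow Mest: against the control it was higher in overexpressor myoblasts (log2 fold change 0.34, SE 0.06, edgeR adjusted p = 0.000274) and in knockout myoblasts (0.21, SE 0.06, adjusted p = 0.00892), and lower in overexpressor myotubes (-0.45, SE 0.06, adjusted p = 5.57e-06) and knockout myotubes (-0.49, SE 0.06, adjusted p = 1.93e-06). Cep41, a centrosomal protein gene 29.8 kb before Mest, fell in the overexpressor (-0.48, SE 0.09, adjusted p = 0.000417 in myoblasts; -0.52, SE 0.09, adjusted p = 0.000112 in myotubes) and rose in the knockout (0.54, SE 0.09, adjusted p = 7e-05; 0.43, SE 0.09, adjusted p = 0.000605). Cpa4, a carboxypeptidase gene 155.2 kb before Mest, rose in the knockout from 0.389 ± 0.188 to 6.01 ± 0.575 CPM in myoblasts (3.92, SE 0.27, adjusted p = 9.78e-10) and from 0.910 ± 0.106 to 8.54 ± 0.798 in myotubes (3.23, SE 0.24, adjusted p = 1.85e-09).

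Both genes of the Peg10 domain were lower in the overexpressor than in the control at both stages. Peg10, a gene derived from a retrotransposon that encodes a capsid-like protein needed for the placenta, stood at 257, 246 and 294 CPM in control myoblasts, against 30.1, 38.4 and 29.0 in the overexpressor and 249.9, 229 and 248 in knockout cells of that stage. In myotubes it stood at 133, 138 and 145 CPM in control cells, 7.96, 8.34 and 8.08 in overexpressor ones and 71.6, 61.5 and 54.2 in knockout ones. Overexpressor Peg10 was 8.18-fold below the control in myoblasts (log2 fold change -3.03, SE 0.11) and 17.1-fold below it in myotubes (-4.09, SE 0.12). The knockout overlapped the control in myoblasts (-0.13, SE 0.10, 95% interval -0.36 to 0.09) and lay 2.22-fold below it in myotubes (-1.15, SE 0.10).

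Sgce encodes epsilon-sarcoglycan, a membrane glycoprotein of the dystrophin-associated complex, and varied less than Peg10. Sgce was at 38.0, 40.6 and 37.5 CPM in control myoblasts, against 27.6, 25.7 and 24.6 in the overexpressor and 41.4, 42.7 and 43.3 in knockout cells of that stage. In myotubes it was at 37.1, 36.1 and 39.4 CPM in control cells, 10.9, 9.75 and 9.93 in overexpressor ones and 25.9, 27.5 and 23.9 in knockout ones. Its log2 fold change in the overexpressor was -0.58 (SE 0.07) in myoblasts and -1.88 (SE 0.07) in myotubes, lower in the same comparisons as Peg10 but by less. In the knockout it was 0.13 (SE 0.07) in myoblasts and -0.54 (SE 0.07) in myotubes.

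With differentiation Peg10 was lower in each line, by -0.94 (SE 0.10) on the log2 scale in the control, -1.999 (SE 0.11) in the overexpressor and -1.96 (SE 0.11) in the knockout. Sgce stayed near its myoblast level in the control (-0.05, SE 0.07, 95% interval -0.20 to 0.11), and was lower in the overexpressor (-1.35, SE 0.07) and the knockout (-0.72, SE 0.07). The ratio of Peg10 to Sgce counts in a library was 6.88 ± 0.895 (SD, n = 3) in control myoblasts, against 1.26 ± 0.211 in the overexpressor and 5.71 ± 0.338 in knockout cells of that stage. In myotubes it was 3.70 ± 0.112, 0.800 ± 0.0636 and 2.42 ± 0.295. The 2 genes with adjoining starts therefore did not keep a fixed ratio. Per kilobase of merged exon, Peg10 was at 39.9 ± 3.75 and Sgce at 3.65 ± 0.157 CPM per kilobase in control myoblasts, against 1.22 ± 0.0293 and 0.961 ± 0.0581 in overexpressor myotubes.

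**Figure D3:**
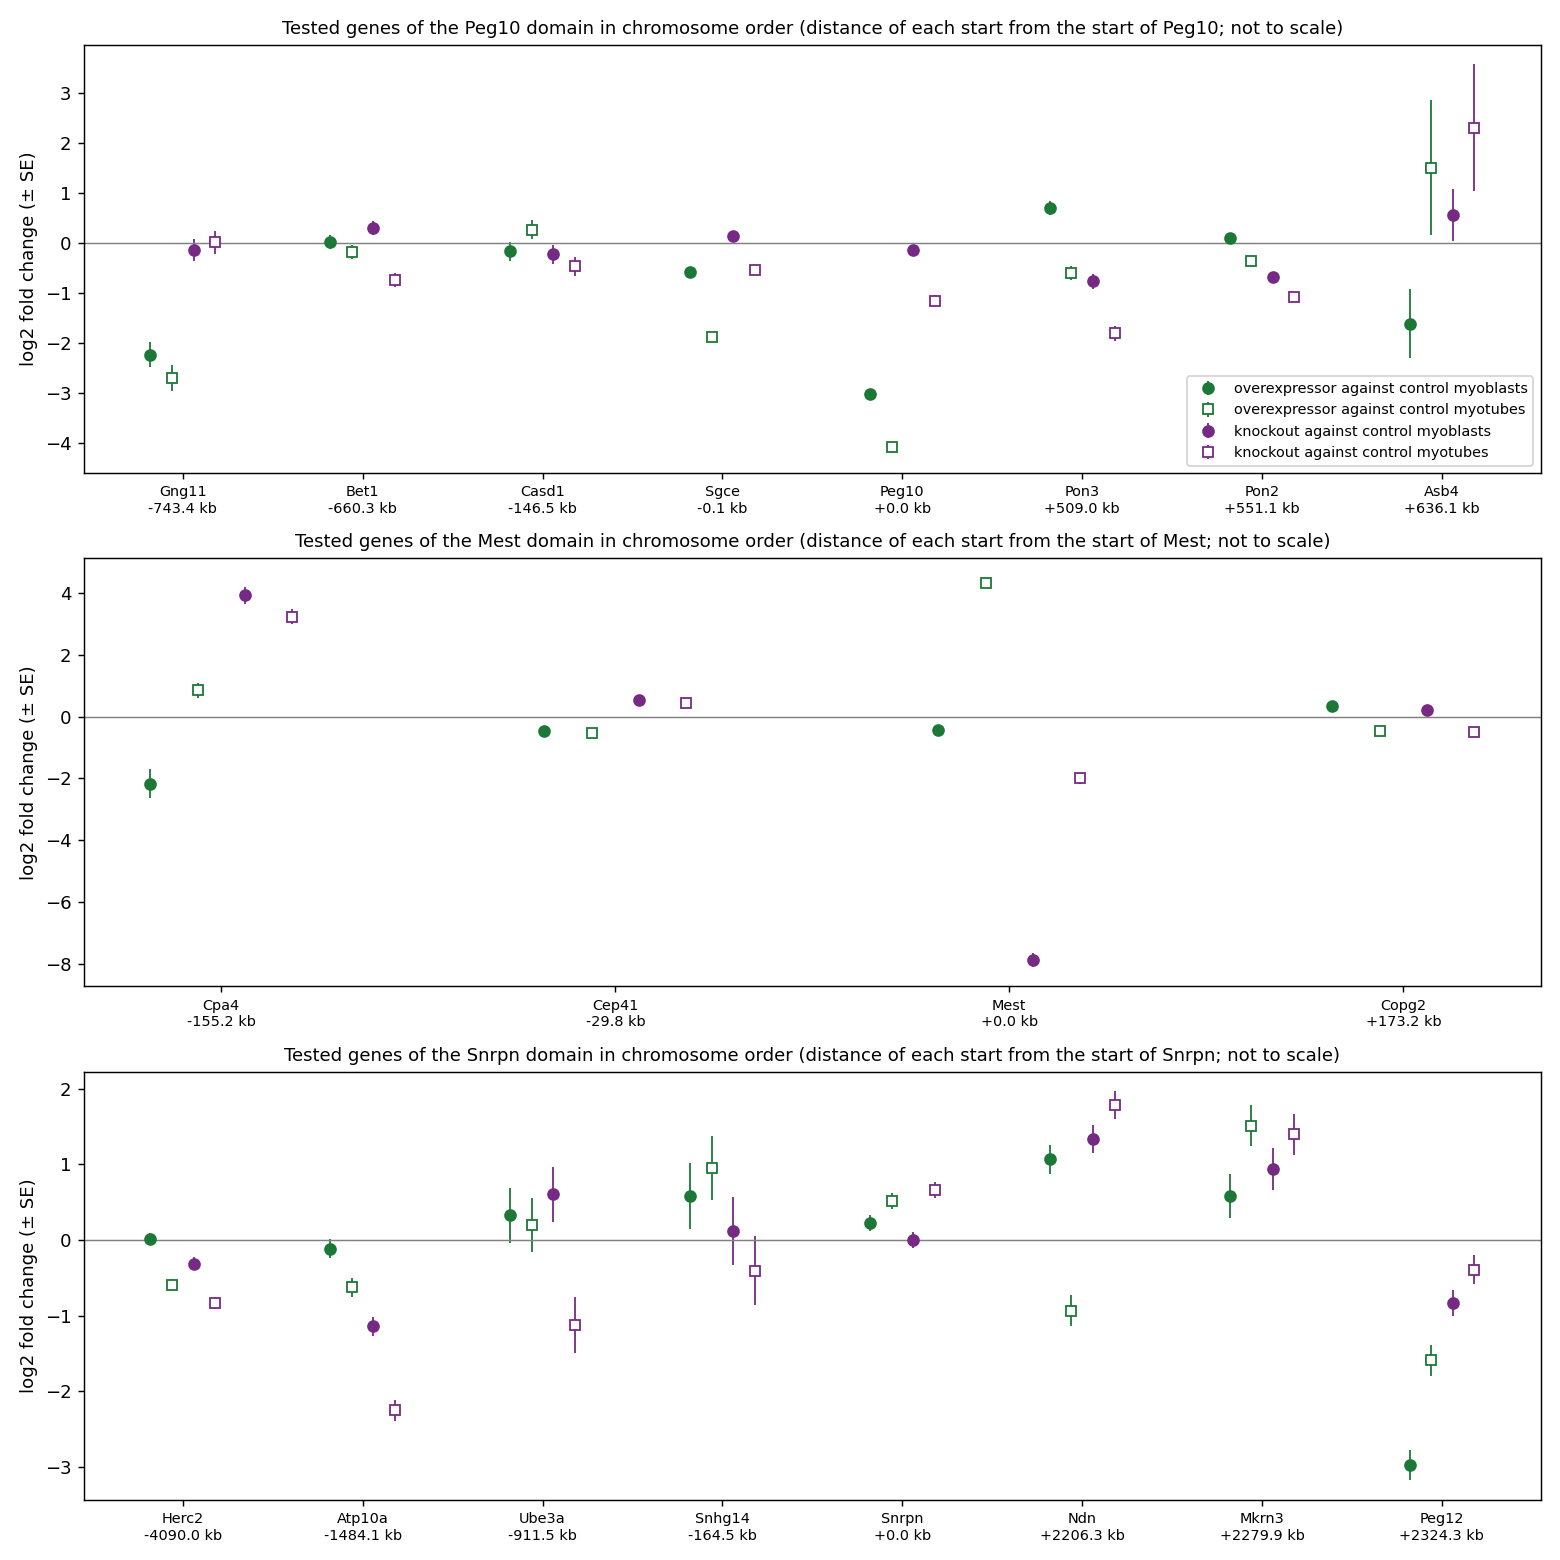
Log2 fold change (± SE) against the control of the tested genes of the Peg10, Mest and Snrpn domains, in chromosome order (spacing not to scale), for overexpressor (green) and knockout (purple) myoblasts (circles) and myotubes (open squares). Casd1, between Gng11 and Sgce, stays within 0.47 of 0 while Peg10 reaches -4.09, and Mest reaches -7.87 while its neighbours Cep41 and Copg2 stay within 0.54. Other neighbours moved further: Cpa4 reaches 3.92 in knockout myoblasts, Gng11 -2.71 in overexpressor myotubes and Pon3 -1.80 in knockout myotubes.

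Around Peg10 the values differed from gene to gene. Casd1, a sialic acid acetyltransferase gene that starts 146.5 kb before Peg10, had a log2 fold change of -0.16 (SE 0.19, edgeR adjusted p = 0.543) in overexpressor myoblasts and of 0.27 (SE 0.19, adjusted p = 0.248) in the myotubes of that line. Gng11, a G protein gamma subunit gene 743.4 kb before Peg10, fell there by 2.24 (SE 0.25, adjusted p = 7.13e-07) and 2.71 (SE 0.26, adjusted p = 6.04e-08), from 3.94 ± 0.388 to 0.831 ± 0.145 CPM in myoblasts and from 2.61 ± 0.0816 to 0.402 ± 0.168 in myotubes. Both genes were chosen after their values were seen. On the other side of Peg10, the paraoxonase gene Pon3 rose in overexpressor myoblasts (0.71, SE 0.14, adjusted p = 0.000571) and fell in overexpressor myotubes (-0.60, SE 0.14, adjusted p = 0.00139), and in the knockout it fell in myoblasts (-0.77, SE 0.15, adjusted p = 0.000221) and myotubes (-1.80, SE 0.15, adjusted p = 5.61e-09). Pon2, its paralog, fell in knockout myoblasts (-0.67, SE 0.08, adjusted p = 1.66e-06) and in overexpressor and knockout myotubes (-0.36, SE 0.08, adjusted p = 0.00103; -1.08, SE 0.08, adjusted p = 2.23e-09). Bet1, a vesicle transport SNARE gene, fell in knockout myotubes (-0.74, SE 0.14, adjusted p = 0.000137).

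Ndn and Snrpn, 2 genes of the Prader-Willi region, did not follow each other, and Ndn was low in all groups. Ndn encodes necdin, a growth-restraining protein of the MAGE family known from neurons and muscle precursors. Ndn stood at 1.16, 0.846 and 1.29 CPM in control myoblasts, against 2.59, 1.85 and 2.45 in the overexpressor and 2.88, 2.88 and 2.53 in knockout cells of that stage, from 44 to 158 counts per library. In myotubes it stood at 1.00, 1.05 and 1.03 CPM in control cells, 0.624, 0.600 and 0.389 in overexpressor ones and 3.67, 3.58 and 3.37 in knockout ones. Both mutant lines were above the control in myoblasts (1.07, SE 0.19, and 1.33, SE 0.19, on the log2 scale). In myotubes the knockout lay above it (1.78, SE 0.19) and the overexpressor below it (-0.93, SE 0.21, or -0.64 without replicate C of the overexpressor myotubes). From myoblasts to myotubes Ndn was lower in the overexpressor (-2.09, SE 0.20), higher in the knockout (0.36, SE 0.17, 95% interval -0.01 to 0.73) and overlapping in the control (-0.09, SE 0.20, 95% interval -0.53 to 0.34).

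Snrpn encodes SmN, a core protein of the spliceosome best known in neurons, and varied least of the 8 genes. Snrpn stood at 8.61, 8.69 and 8.48 CPM in control myoblasts, against 11.3, 10.0 and 8.80 in the overexpressor and 7.42, 9.45 and 8.98 in knockout cells of that stage. In myotubes it stood at 11.9, 12.1 and 11.8 CPM in control cells, 18.04, 17.3 and 15.9 in overexpressor ones and 18.5, 17.4 and 20.8 in knockout ones. Its highest group mean was 2.20 times its lowest, against 254 times for Mest, 32.7 for Peg10, 17.1 for Usp29, 16.9 for Zim1, 9.08 for Peg3, 6.58 for Ndn and 4.16 for Sgce. Snrpn was higher in myotubes than in myoblasts in all 3 lines, by 0.48 (SE 0.11) on the log2 scale in the control, 0.76 (SE 0.10) in the overexpressor and 1.13 (SE 0.11) in the knockout. Of its 2159 exon bases 737 are shared with other genes, among them all 216 of Snurf, which had 0 counts in every library, so that the Snrpn values are uncertain.

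The ratio of Ndn to Snrpn counts was 12.8 ± 2.80%, 23.1 ± 4.68% and 32.5 ± 5.64% (SD, n = 3) in control, overexpressor and knockout myoblasts, and 8.59 ± 0.157%, 3.13 ± 0.588% and 18.9 ± 2.35% in myotubes. The overexpressor ratio was above the control in myoblasts and below it in myotubes, without overlap. The summed level of 5 neuron markers (Rbfox3, Snap25, Syt1, Map2, Stmn2) moved as well, from 85.9 to 95.6 CPM in control myoblasts to 490.1 to 517 in overexpressor myoblasts, and was 123 to 131 in knockout myoblasts, 27.9 to 32.3 in control myotubes, 80.4 to 103 in overexpressor myotubes and 34.5 to 36.2 in knockout myotubes. Stmn2 made up most of the sum. Map2 was at 3.00 ± 0.300 CPM in control and 13.6 ± 2.69 in overexpressor myoblasts, 1.51 ± 0.576 and 14.6 ± 4.27 in the myotubes of those lines, and at 0 counts in every knockout library. Syt1 was at 0.880 ± 0.188 CPM in control myoblasts, at 0 counts in overexpressor myoblasts and at no more than 8 counts in each library of the other 4 groups, and Rbfox3 and Snap25 had at most 4 and 1 counts in any library. The summed level of 4 fibroblast and adipocyte markers (Pdgfra, Cd36, Adipoq, Plin1) was 29.4 to 31.4 CPM in control myoblasts, 21.5 to 24.0 for the overexpressor and 53.3 to 55.1 for the knockout; among myotubes it was 31.9 to 39.9, 55.6 to 152 and 69.0 to 89.6. Cd36 carried most of these differences, with 0.183 ± 0.0795 CPM in control and 17.1 ± 1.86 in knockout myoblasts, and among myotubes 13.97 ± 2.57 for the control, 80.3 ± 54.0 for the overexpressor and 57.7 ± 10.5 for the knockout, while Pdgfra ran from 10.2 to 36.9 CPM over the group means and Adipoq and Plin1 had at most 3 counts. The sum of 4 blood and endothelial markers was at most 2.03 CPM. The part of these marker changes in the values of the 8 genes was not tested.

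Among the neighbours of Snrpn, Peg12 (a paternally expressed gene beyond Ndn) fell from 5.57 ± 0.249 to 0.702 ± 0.131 CPM in overexpressor myoblasts (-2.98, SE 0.20, adjusted p = 8.98e-10) and in knockout myoblasts (-0.84, SE 0.17, adjusted p = 0.00046). Atp10a, a phospholipid flippase gene, fell in knockout myoblasts (-1.14, SE 0.13, adjusted p = 6.49e-07), overexpressor myotubes (-0.63, SE 0.13, adjusted p = 0.000419) and knockout myotubes (-2.25, SE 0.14, adjusted p = 1.3e-10). Herc2, a large ubiquitin ligase gene, fell in the same 3 comparisons by 0.31 (SE 0.08, adjusted p = 0.00303), 0.59 (SE 0.08, adjusted p = 4.24e-06) and 0.84 (SE 0.08, adjusted p = 4.43e-08). Ube3a, the ubiquitin ligase gene of Angelman syndrome, fell in knockout myotubes (-1.13, SE 0.37, edgeR adjusted p = 0.0141). That call was lost without control replicate C (adjusted p = 0.0518), knockout replicate B (0.0519) or knockout replicate C (0.0648). Ube3a shares 5624 of its 20626 exon bases with genes on the other strand, and the strand setting is not given.

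How far the genes of a domain resembled each other over the 6 group means was measured as the root mean square difference in log2 CPM, each gene centred on its own mean, over 17911 other genes. Zim1 and Usp29 were at 0.48 from each other, Peg3 and Usp29 at 0.47 and Peg3 and Zim1 at 0.50. Seen from Zim1, Usp29 was the 16th and Peg3 the 21st nearest of all genes; from Usp29, Peg3 was the 31st and Zim1 the 35th; and from Peg3, Usp29 was the 92nd and Zim1 the 119th. Peg10 and Sgce were at 1.12, where Sgce was the 158th nearest gene to Peg10 but Peg10 only the 13735th from Sgce, and Ndn and Snrpn at 1.08, the 9010th place from Ndn and the 13846th from Snrpn. The genes nearest to Peg3 under the naming rule were Naip6, B3gnt4 and Ntn1 (0.22 to 0.23). For Usp29 they were Cd40, Car2 and Mgp, for Zim1 Hey1, Igf2bp2 and Paqr8, for Mest Add2, Map2 and Unc93b1, for Peg10 Npr3, St3gal6 and Lonrf3, for Sgce Mlh3, Pdgfra and Csrp2, and for Snrpn Otud3, Slc26a11 and Mlycd. The nearest genes to Mest were at 1.22 to 1.34, a looser likeness than for the others. These distances describe 6 means that share libraries, and say nothing of shared function or control.

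The 8 genes were read against the spread of all 17912 tested genes. The 3 libraries of each group did not overlap for all 8 genes in overexpressor against control myoblasts (5 higher, 3 lower), where 51.1% of all genes did the same; for 6 in knockout against control myoblasts (5 higher, 1 lower; 68.7%); for all 8 in overexpressor against control myotubes (5 higher, 3 lower; 59.9%); and for all 8 in knockout against control myotubes (5 higher, 3 lower; 71%). For control myotubes against myoblasts it was 6 (1 up, 5 down; 70.7%), for overexpressor cells 8 (2 up, 6 down; 62.8%) and for knockout cells 8 (3 up, 5 down; 72.3%). Both mutant lines were compared with the same 3 control libraries of a stage. Where both lie on the same side of the control, as for the Peg3 domain, the results are therefore not independent. The same holds where both lines differ from the control in their change with differentiation. The genes had been chosen on these contrasts, so nothing is read from the counts.

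Companion genes outside the 8 were tested with edgeR's quasi-likelihood test (threshold 0.05 on Benjamini-Hochberg adjusted p over all 17912 genes). Their lists were drawn up with earlier results of these data known, so the calls are not independent support. The companions were 32 other genes of the 4 domains, of which 30 were in the table and 15 were tested, and 40 imprinted genes elsewhere, of which 32 were tested. The domain genes were listed as neighbours, and whether each is itself imprinted was not examined. Shares of the 47 tested are therefore not shares of imprinted genes. Genes of the Dlk1-Dio3 cluster were left out. Of the domain neighbours 12 had 0 counts in all 18 libraries, among them Magel2, Zim2, Zim3, Calcr and Klf14. In overexpressor against control myoblasts 25 of the 47 tested changed (14 rose, 11 fell), where 40.4% of all genes did. In knockout against control myoblasts 32 changed (19 rose, 13 fell; background 53%), between overexpressor and control myotubes 31 (14 rose, 17 fell; 57.1%) and in knockout against control myotubes 35 (17 rose, 18 fell; 68%). From myoblasts to myotubes 30 changed in the control (21 rose, 9 fell; 62.8%), 30 in the overexpressor (16 rose, 14 fell; 62.8%) and 29 in the knockout (15 rose, 14 fell; 65.4%). As shares of the 47 these were 53.2%, 68.1%, 66.0% and 74.5% for the line comparisons and 63.8%, 63.8% and 61.7% for differentiation, without a test of their difference from the shares over all genes. Of the 15 domain neighbours alone, 6 changed in overexpressor against control myoblasts (40.0%), near the share over all genes, and 9, 10 and 11 in the other 3 line comparisons (60.0%, 66.7% and 73.3%). The median log2 fold change of the 47 was 0.08, 0.19, 0.00 and 0.05 in those 4 comparisons, and that of all genes 0.02, 0.02, -0.04 and -0.07.

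Of the 22 imprinted genes elsewhere that met the naming rule, the 8 with the largest changes are described. H19, a noncoding RNA of muscle and embryo, was the most abundant of them and rose in both lines at both stages: from 2968 ± 102 CPM in control myoblasts to 8400 ± 712 in overexpressor and 14415 ± 229.9 in knockout myoblasts (1.501, SE 0.08, adjusted p = 8.03e-11; 2.28, SE 0.09, adjusted p = 2.83e-13), and from 3597 ± 117 in control myotubes to 18805 ± 2156 in overexpressor and 24394 ± 1653 in knockout myotubes (2.39, SE 0.09, adjusted p = 1.19e-13; 2.76, SE 0.09, adjusted p = 1.93e-14). Peg13 rose in the overexpressor (1.33, SE 0.07, adjusted p = 7.03e-11 in myoblasts; 0.60, SE 0.07, adjusted p = 1.31e-06 in myotubes) and fell in the knockout (-2.34, SE 0.08, adjusted p = 8.1e-14; -2.02, SE 0.08, adjusted p = 2.32e-13). Dcn, which encodes the proteoglycan decorin, rose in overexpressor myoblasts (2.77, SE 0.19, adjusted p = 1.44e-09) and knockout myoblasts (1.49, SE 0.19, adjusted p = 2.78e-06) and fell in overexpressor myotubes (-2.84, SE 0.17, adjusted p = 1.5e-10). Herc3, a ubiquitin ligase gene, fell in overexpressor myoblasts (-0.84, SE 0.12, adjusted p = 1.41e-05) and rose in overexpressor myotubes (1.96, SE 0.12, adjusted p = 1.17e-10), and in the knockout it rose at both stages (0.45, SE 0.12, adjusted p = 0.00313 in myoblasts; 1.07, SE 0.12, adjusted p = 2.92e-07 in myotubes).

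Ddc, the aromatic amino acid decarboxylase gene, rose in the knockout in myoblasts (2.34, SE 0.13, adjusted p = 2.94e-11) and myotubes (1.51, SE 0.12, adjusted p = 3.68e-09), and in overexpressor myotubes (0.52, SE 0.12, adjusted p = 0.00111). Tspan32, a tetraspanin gene, rose in overexpressor myotubes from 18.6 ± 1.51 to 57.8 ± 4.54 CPM (1.63, SE 0.20, adjusted p = 3.85e-06). Cdkn1c, the cell cycle inhibitor p57, fell in overexpressor myoblasts from 7.08 ± 0.135 to 0.460 ± 0.236 CPM (-3.94, SE 0.73, adjusted p = 0.00047), in knockout myoblasts (-1.58, SE 0.58, adjusted p = 0.0329) and in overexpressor myotubes (-2.01, SE 0.53, adjusted p = 0.00459). The libraries of that last group stood at 12.5, 1.01 and 11.2 CPM, and the call was lost in an edgeR fit on the 2 groups alone (adjusted p = 0.079). Cdkn1c shares 625 of its 2039 exon bases with a gene on the other strand, and the strand setting is not given. Igf2, the insulin-like growth factor gene next to H19, fell in knockout myotubes from 23.7 ± 2.94 to 10.3 ± 1.75 CPM (-1.21, SE 0.13, edgeR adjusted p = 2.64e-07). Of its 5723 exon bases 3694 are shared with other genes, 3596 of them on the same strand. The Igf2 values are therefore uncertain whatever the strand setting. Its calls in knockout myoblasts (0.36, SE 0.14, adjusted p = 0.0356) and overexpressor myotubes (-0.40, SE 0.13, adjusted p = 0.0135), like that of Cdkn1c in knockout myoblasts, were lost under several alternatives given in the closing section.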

How the data were processed

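RNA of 18 C2C12 libraries was read from the raw count per gene that the authors deposited. The submitters' processing notes name STAR 2.7.9a, featureCounts, Subread 2.0.3, FastQC 0.11.7, DESeq2 1.32.0 and the build mm10; their order and roles, the annotation release and the strand setting are not given in the sources used here. Of 55450 gene IDs 55104 matched a symbol. Sequences come from RefSeq (GRCm38.p6). Counts were fitted in edgeR 4.0.16 (R 4.3.3) with TMM scaling, filterByExpr and robust quasi-likelihood over all 6 groups in one fit (12 residual degrees of freedom), leaving 17912 genes; CPM use TMM-scaled totals. SEs and 95% intervals come from that fit. The fit was tested on simulated data. The genes and lists were chosen with earlier results of these data known.

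Named companions were those called in either mutant line against control, without overlap of replicates and with a mean of at least 5 CPM in the higher group, at most 8 outside the domains. Each gene above 5 CPM was given its 3 nearest genes, readthrough and predicted models left out. Alternatives were DESeq2 1.42.0 and its size factors, library totals, no filter, fits on 2 groups, a replicate block and each replicate left out. Same-lettered replicates did not deviate together: of 45 pairs 4 had a correlation above 0.1 (mean -0.03). No column of the table was left unassigned.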

Additional observations from a re-analysis of the deposited data

Results flagged for a closer look

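Responses to differentiation (the log2 change from myoblasts to myotubes) that differed between a mutant line and the control were marked for a closer look. For the 8 domain genes the difference was not tested, since they were chosen on these values; they are marked because libraries that did not overlap pointed in opposite directions, either from myoblasts to myotubes in both lines or between the lines at both stages. Mest was lower in control myotubes than in myoblasts but higher in both mutant lines, a difference of 4.76 for the overexpressor and 5.89 for the knockout. The knockout value rests on few reads, with 12 to 16 counts per library in myoblasts and 32 to 62 in myotubes. Reads in the exon bases that Mest shares with Copg2 cannot be assigned. Sgce in the knockout lay above the control in myoblasts and below it in myotubes, a difference of -0.67. Ndn in the overexpressor did the same, with a difference of -1.99955. From myoblasts to myotubes Ndn was lower in the overexpressor and higher in the knockout, a difference of -2.45.

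For the companions the difference was tested in edgeR as an interaction, at an adjusted p below 0.05. In the overexpressor relative to the control, Cpa4 differed by 3.02, Herc3 by 2.80, Ddc by 1.85, Peg12 by 1.39, Igf2 by 1.02 and H19 by 0.89. The Cpa4 value rests on few reads, with 1 to 7 counts per library in overexpressor myoblasts and 8 to 28 in control myoblasts. A positive difference is a larger rise or a smaller fall with differentiation than in the control, not a higher level: Peg12 was at 0.702 CPM in overexpressor myoblasts and 0.533 in the myotubes of that line, below the 1.61 of control myotubes. Dcn differed by -5.60, Pon3 by -1.30, Copg2 by -0.79, Peg13 by -0.73, Herc2 by -0.60, Atp10a by -0.51 and Pon2 by -0.46. In the knockout relative to the control, Cdkn1c differed by 1.93, Herc3 by 0.62, H19 by 0.48 and Peg13 by 0.32. The Cdkn1c call lay at the threshold (SE 0.77, edgeR adjusted p = 0.0498). Its difference in the overexpressor was of similar size but was not called (1.94, SE 0.92, adjusted p = 0.115). In the same line Ube3a differed by -1.73, Igf2 by -1.57, Dcn by -1.44, Atp10a by -1.11, Bet1 by -1.05, Pon3 by -1.04, Ddc by -0.83, Copg2 by -0.70, Herc2 by -0.53 and Pon2 by -0.41. These 27 calls were made over 18 companions and 2 lines, and Dcn in the overexpressor was the largest of them. The 18 had been named because they were called in a mutant line against the control, and the interaction uses the same libraries. Interaction calls among them were therefore likely beforehand. The share of interaction calls over all genes is not given here, so nothing is read from their number.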

How the results depend on the processing

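The 84 counts of called companions and the 56 counts of non-overlapping domain genes under the alternatives each stayed within 1.5 times the reported count. For the domain genes this limit tests little. Their reported counts were 6 or 8 of 8, so no rise could pass it. Apart from rescaling, leaving out a library can only keep or add a non-overlap. None of the 52 companion calls between a mutant line and the control changed sign. The interaction calls of the companions were not recomputed under the alternatives. Of 1248 recomputed fold changes of the 8 genes, 56 moved by more than the spread between replicates, the largest by 1.23 times. Sign changes occurred for 5 of 96 such values, all near 0, for example Snrpn in knockout against control myoblasts (-0.07 to 0.10) and Ndn in control myotubes against myoblasts (-0.33 to 0.03). With the replicate letter as a block, calls in overexpressor against control myoblasts went from 25 to 24 and in knockout against control myotubes from 35 to 33, and the block ended no call of a named companion. Scaling by library totals moved the median of all genes in myotubes against myoblasts to -0.17 in the control and -0.24 in the knockout, from 0.07 and -0.08. With a prior count of 0.5 in place of 2, between 1 and 3 of the 3 nearest genes listed for a gene were kept. Of 52 companion calls 5 were lost under at least one alternative. Igf2 in overexpressor against control myotubes was lost with library totals (adjusted p = 0.125), DESeq2 size factors (0.0588), DESeq2 (0.0515) and a fit on the 2 groups (0.0532), Igf2 in knockout against control myoblasts with library totals (0.0605), and Cdkn1c in that comparison with no filter on low counts (0.0831); leaving out single replicates also ended these 3. Cdkn1c in overexpressor against control myotubes was lost in the fit on the 2 groups (0.079).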
